A study of Rattus norvegicus with 8 samples.

Results

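Slpi, Kng1 and Pi16 encode 3 proteins that carry the name of an inhibitor of proteases or contain inhibitor domains, and they were followed here across dorsal root ganglia of rats. They are 3 of the 4351 genes that the 2 deposited tables list, and they were taken by symbol. The 3 were chosen by their measured levels in these libraries: Slpi and Kng1 were among the largest increases in ganglia of imiquimod-treated rats, and Pi16 was lower in both comparisons. Their levels are therefore given as a description, without a test.

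The lidocaine group (n = 2) consisted of Sprague Dawley rats that had imiquimod on the back skin for 6 days and, from day 3, 4 days of epidural 1% lidocaine. The IMQ group (n = 3) had the imiquimod alone, and the WT group (n = 3) was untreated. Rats weighed 250 g and ganglia were taken on day 7. Imiquimod activates Toll-like receptor 7 and serves on skin as a model of psoriasis, while lidocaine blocks voltage-gated sodium channels. No vehicle treatment of WT skin and no lidocaine-free epidural injection is described, and the labels do not say that each sample is a separate animal, so that every spread and p-value given here concerns differences between samples, which may be technical.

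Slpi, secretory leukocyte peptidase inhibitor, is a small secreted protein of paired WAP domains that blocks neutrophil elastase and cathepsin G, and it is made by epithelia, neutrophils and macrophages. In the rat it has also been linked with regrowth of sensory axons past myelin. Kininogen, the product of Kng1, is cut by kallikreins to release bradykinin, which excites pain-sensing endings, and its cystatin domains inhibit cysteine proteases; T-kininogens, which are close relatives, belong to the acute phase response of rat liver. Pi16 belongs to the CAP superfamily. In mice it marks adventitial fibroblasts and is found in fibroblasts of the coverings of nerve and ganglion, where its loss reduces neuropathic pain.

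Levels are the authors' log2(normalized count + 1) or, where said, normalized counts. The tables hold only genes whose group means differed by at least 1 on that log2 scale, 4136 for IMQ against WT and 775 for lidocaine against IMQ. Each value came from a whole number of reads, and 1 read was worth 0.723 to 1.23 normalized counts, depending on the library. Of 22 neuronal markers 5 were listed for IMQ against WT, all present in both groups, among them the neurofilament Nefm at 17.62 ± 0.02 in IMQ and 18.67 ± 0.33 in WT (SD, n = 3 each). In IMQ 4 of the 5 were lower and 1 higher, with summed normalized counts of 340444 to 352433 in IMQ and 545140 to 1.05e+06 in WT. None of the 22 was listed for lidocaine against IMQ, so the tissue label of the lidocaine libraries was not checked this way.

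Slpi (ENSRNOG00000046699) was abundant in every lidocaine and IMQ library and low or undetected in WT. Normalized counts were 1115 and 1362 in the lidocaine libraries and 3195, 3586 and 3177 in the IMQ libraries. In WT they were 0, 102 and 41.0, from 0, 138 and 46 reads. IMQ was highest and WT lowest, and no library of one group reached into another. In whole ganglia, more cells of a type and more RNA per cell cannot be told apart, here and in all that follows. The 0 of WT replicate 1 allows up to 2.17 normalized counts (3 reads, counting error only).

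On the log2 scale Slpi stood at 11.69 ± 0.10 in IMQ and 4.03 ± 3.55 in WT (SD, n = 3 each), a difference of 7.67 with a limma standard error of 1.53. That made it the 7th largest of 2528 increases. The ratio of mean normalized counts, which a value of 0 affects less, was 69.6. The IMQ libraries were closely alike, while of 4136 listed genes only 1 had a larger SD among WT libraries. Slpi was also the only listed gene with no read in WT replicate 1 and at least 40 normalized counts in both other WT libraries. That cut-off lies just under the 41.0 of Slpi itself in WT replicate 3, so this is a description and sets Slpi apart by no independent measure. The fold difference on the log2 scale was 203 with all libraries, 50.4 without WT replicate 1, 511 without WT replicate 2 and 327 without WT replicate 3. Its size therefore rests on the WT libraries, whereas its direction was the same without any one of them.

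With lidocaine added, Slpi was lower than with imiquimod alone but remained far above untreated ganglia. The level was 10.27 ± 0.20 in lidocaine (n = 2) and 11.69 ± 0.10 in IMQ (n = 3), a difference of -1.43 (SE 0.23). The ratio of mean normalized counts was 0.373. This difference was near the median of all genes listed for the comparison, which was -1.44. The lowest lidocaine library still held 1115 normalized counts, against 102 in the highest WT library. Both comparisons use the same IMQ libraries. Non-overlap by itself singles out no gene here. For IMQ against WT, groups did not overlap in 92.8% of listed genes, with 57% higher and 35.8% lower in IMQ. For lidocaine against IMQ they did not overlap in 98.1%, with 8.9% higher and 89.2% lower under lidocaine. RefSeq also holds 2 Slpi pseudogenes on the assembly GRCr8, so reads of near-identical copies could have been split between them or lost.

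**Figure D1:**
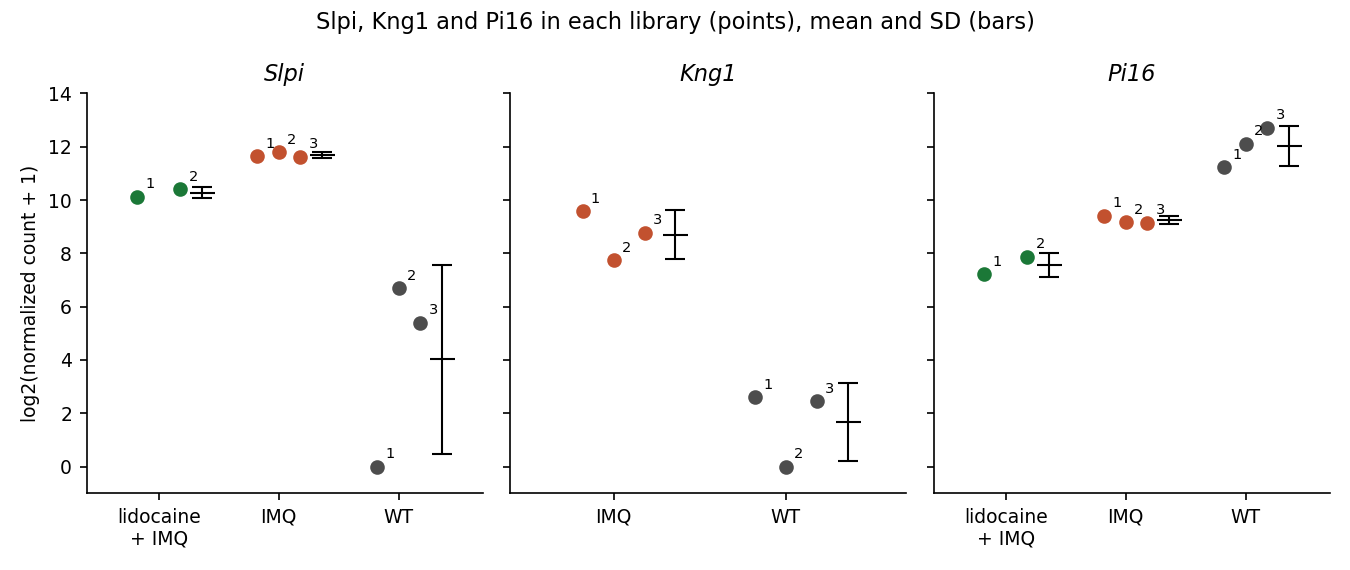
Level of Slpi, Kng1 and Pi16 in log2(normalized count + 1) on the vertical axis, with 1 point per library (numbers are replicate numbers) in lidocaine + IMQ, IMQ and WT ganglia; bars are mean and SD. Slpi is at 0 in WT replicate 1, Kng1 is at 0 in WT replicate 2 and is plotted for IMQ and WT, and Pi16 is lowest in the lidocaine libraries.

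The relatives of Slpi were few in the tables. Of 24 other genes with WAP domains, Wfikkn2, which binds growth factors of the myostatin kind, rose in IMQ (8.94 ± 0.94 against 5.84 ± 0.33 in WT, limma adjusted p = 0.00215). All p-values are from limma, adjusted by Benjamini-Hochberg across every gene a table lists, and since the authors had selected those genes for differing, high shares pass. For IMQ against WT 95.9% of listed genes passed 0.05, 58.9% of all being higher and 37% lower. For lidocaine against IMQ 94.6% passed, 7.48% of all being higher and 87.1% lower. Under lidocaine Wfikkn2 fell to 6.79 ± 0.05, against 8.94 ± 0.94 in IMQ (adjusted p = 0.0103), and Wfdc1 to 9.62 ± 0.74, against 10.83 ± 0.53 (adjusted p = 0.0309). Leaving out a lidocaine library leaves 1, which is then assumed to vary like the IMQ libraries, so calls lost in that way, here and below, also reflect the smaller design. These calls were lost without lidocaine replicate 1, that of Wfikkn2 also without lidocaine replicate 2 and that of Wfdc1 without IMQ replicate 1 or 3. Wfdc6a was listed at 0 in all 3 IMQ libraries, with 2.77 ± 0.76 in lidocaine and 1.94 ± 2.10 in WT.

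The listed serine proteases that Slpi can meet in tissue did not all share its direction in IMQ. Of 18 genes of granulocyte and mast cell proteases 5 were listed. Neutrophil elastase (Elane, 1.67, SE 0.66, adjusted p = 0.0415) and proteinase 3 (Prtn3, 1.36, SE 0.54, adjusted p = 0.0415) rose, and the mast cell chymases Mcpt1l1 (-2.22, SE 0.35, adjusted p = 0.00192) and Cma1 (-1.97, SE 0.43, adjusted p = 0.00617) fell. The tryptase Tpsb2 was at 4.67 ± 0.10 in IMQ and 5.87 ± 1.07 in WT (adjusted p = 0.0658), a difference that passed without WT replicate 1. The median of the 5 was -1.20, against 1.25 for all listed genes. The call of Elane was lost without any one IMQ library or WT replicate 1 or 2, and that of Prtn3 without IMQ replicate 1 or 3 or WT replicate 1 or 3.

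Under lidocaine all 5 listed genes of these proteases fell. Their median difference was -1.67, against -1.44 for all listed genes. Since 87.1% of all listed genes were lower past the threshold, this count does not single out the proteases. Cathepsin G (Ctsg) was at 2.82 ± 1.45 in lidocaine and 6.03 ± 0.95 in IMQ (adjusted p = 0.0109), and Mcpt8, a basophil protease in mice, at 3.79 ± 0.74 and 6.99 ± 0.71 (adjusted p = 0.0046). Elane, Prtn3 and Cma1 differed by -1.61, -1.26 and -1.67 (SE 0.53, 0.50 and 0.49; limma adjusted p = 0.0261, 0.0458 and 0.0181). Without lidocaine replicate 1 the calls of Ctsg, Elane, Prtn3 and Cma1 were lost, without lidocaine replicate 2 or IMQ replicate 1 those of Elane and Prtn3, and without IMQ replicate 3 those of Elane, Prtn3 and Cma1.

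Listed neutrophil and macrophage markers were higher in IMQ and lower under lidocaine, as Slpi was, while most listed epithelial markers were lower in IMQ. Of 19 neutrophil markers 9 were listed for IMQ against WT, all 9 higher and 8 past the threshold, with summed normalized counts of 9885 to 14711 in IMQ and 1211 to 3119 in WT. Of 20 macrophage and monocyte markers 18 were listed and all rose, with sums of 133171 to 164246 in IMQ and 13985 to 17162 in WT. Under lidocaine all 10 listed neutrophil markers were lower, 9 past the threshold, with sums of 2074 to 2231 in lidocaine and 4769 to 10472 in IMQ. All 11 listed macrophage markers were lower past it, with sums of 46758 to 54092 in lidocaine and 115425 to 146001 in IMQ. Among all listed genes 58.9% were higher past the threshold in IMQ and 87.1% lower under lidocaine, so the lidocaine counts single out neither list. The 1 epithelial marker listed under lidocaine, Krt19, was also lower (-1.34, SE 0.40). The count of neutrophil markers past the threshold was 5 without IMQ replicate 1 or 3 or WT replicate 1, and under lidocaine 3 with either lidocaine library left out, and that of macrophage markers under lidocaine was 7 without IMQ replicate 3. Of 11 listed epithelial markers 8 fell and 3 rose, with sums of 925 to 1126 in IMQ and 1683 to 2792 in WT, and the keratinocyte genes Dsc3 and Krt15 were at 0 in every IMQ library, as the claudin Cldn7 was in every WT library. The 3 that rose were 1 without IMQ replicate 2, WT replicate 1 or WT replicate 3 and 0 without IMQ replicate 1 or WT replicate 2, and the fall of Krt15 was lost without any one library other than WT replicate 1. No listed neutrophil or macrophage marker was at 0 in a whole group. The part of these cells in the Slpi level was not tested.

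**Figure D2:**
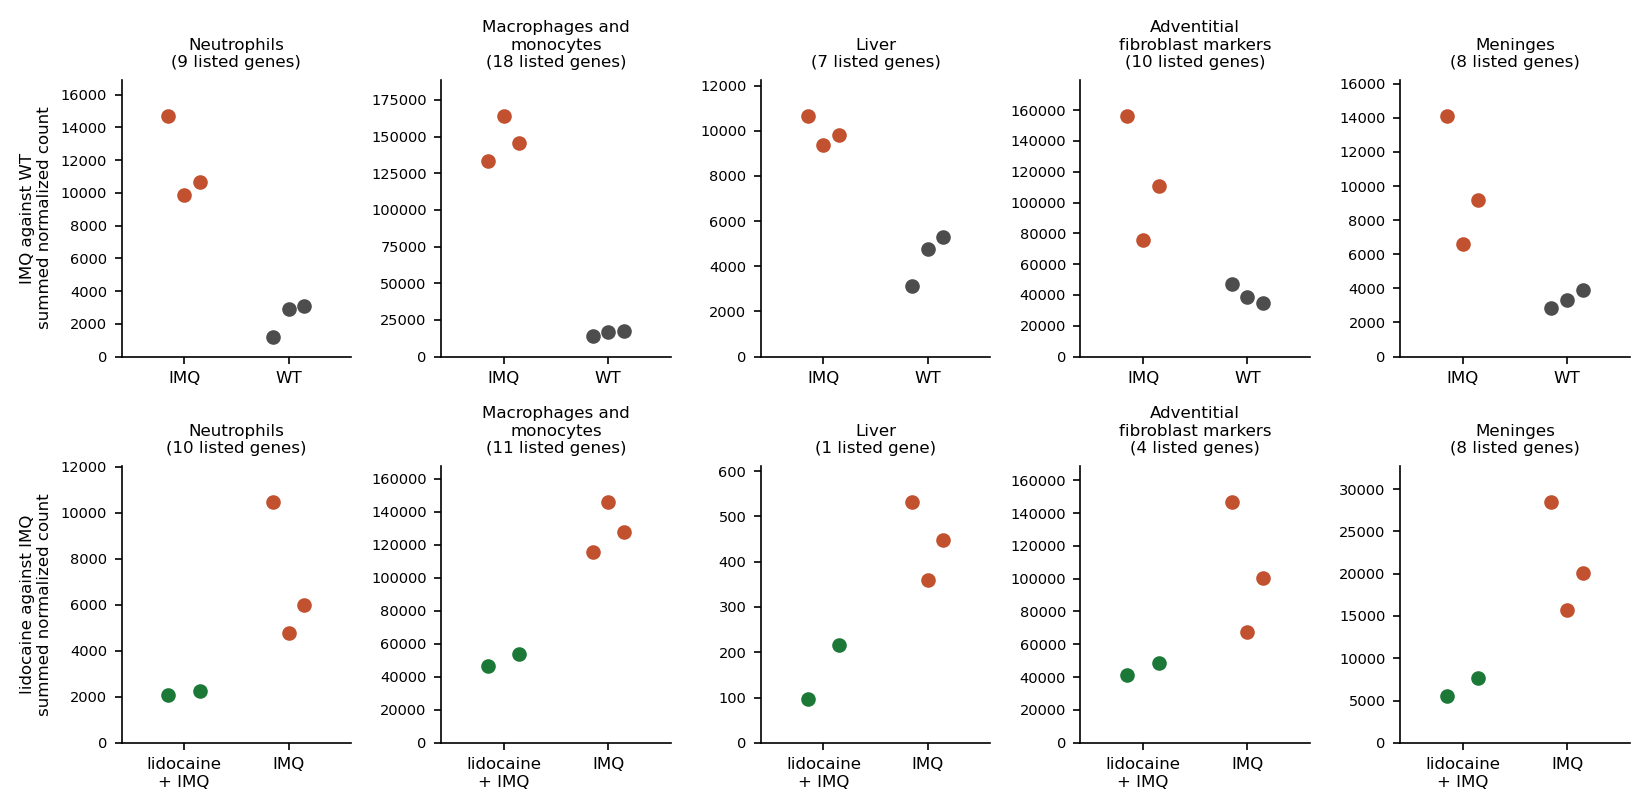
Summed normalized counts (vertical axes, from 0) of the listed marker genes of 5 cell types or tissues, Pi16 left out, with 1 point per library: IMQ and WT in the top row, lidocaine + IMQ and IMQ in the bottom row. In every list the IMQ libraries lie above the WT libraries and above the lidocaine libraries, where the liver list holds 1 gene.

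Kng1 (ENSRNOG00000030387) was close to undetected in untreated ganglia and plainly present in all IMQ ganglia. Normalized counts were 761, 214 and 439 in IMQ, from 632, 191 and 412 reads. In WT they were 5.06, 0 and 4.46, from 7, 0 and 5 reads. The lowest IMQ library was far above the highest WT library, but the IMQ libraries differed among themselves by more than those of most listed genes, since 297 of 4136 had a larger SD. The 0 of WT replicate 2 allows up to 2.22 normalized counts.

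The log2 level of Kng1 was 8.70 ± 0.92 in IMQ and 1.68 ± 1.46 in WT (SD, n = 3 each), a difference of 7.02 (SE 0.80), the 11th largest of 2528 increases. The ratio of mean normalized counts was 148. In WT the level rests on at most 7 reads per library. With 1 library left out, the difference ran from 6.18 without WT replicate 2 to 7.49 without IMQ replicate 2. Kng1 is not among the genes listed for lidocaine against IMQ, and its level under lidocaine was not analysed here.

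**Figure D3:**
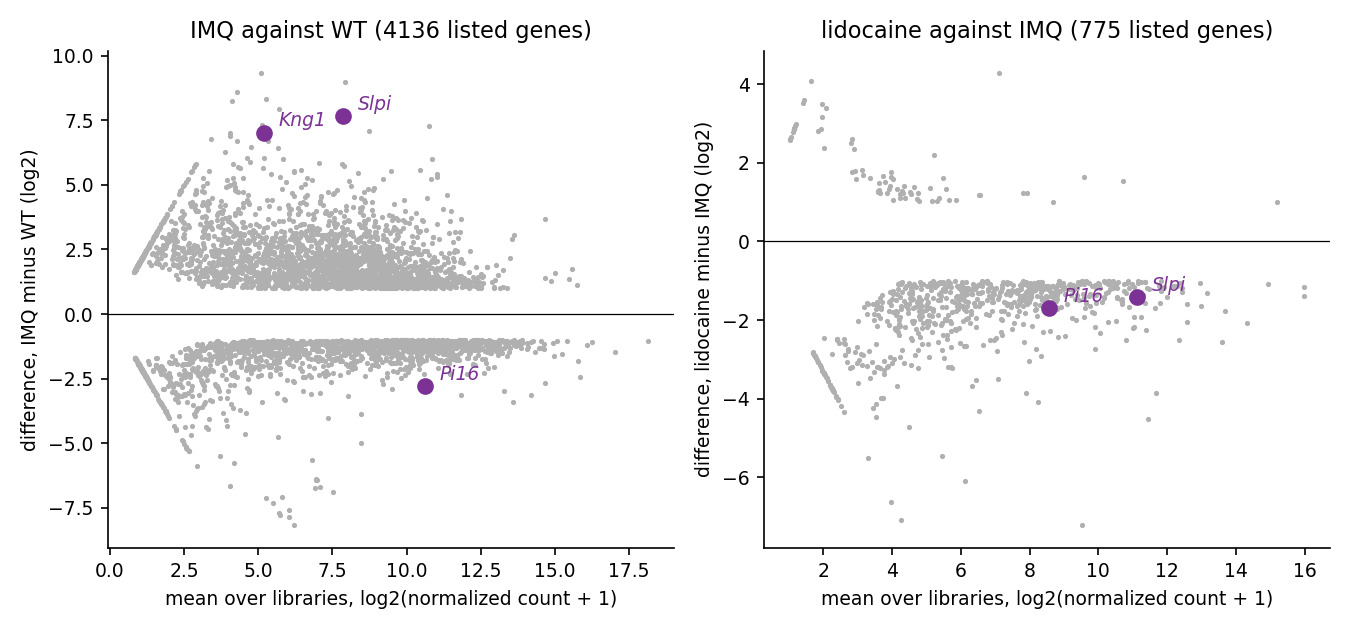
Difference between group means (vertical axis, log2) against mean level over libraries (horizontal axis, log2(normalized count + 1)) for the 4136 genes listed for IMQ against WT (left) and the 775 for lidocaine against IMQ (right), 1 point per gene. Slpi and Kng1 lie at the upper edge on the left with 7.67 and 7.02, and on the right Slpi and Pi16 lie within the band of lower genes with -1.43 and -1.69; the band around 0 is empty because smaller differences are not listed.

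The name Kng1 needs care in the rat. RefSeq gives it as symbol of 1 gene and as a synonym of Kng2 and Kng2l1, so 3 genes carry it, all on chromosome 11, and reads of such close copies can be split or misassigned by a counting step. The starts of Kng1 and Kng2 are printed to show how alike the copies are (RefSeq, GRCr8, 250 bases before to 50 after the annotated start). Kng1 lies on the minus strand with its window at chr11:91340099-91340398, and Kng2 on the plus strand with its window at chr11:91418220-91418519. Which of the copies the deposited row counts is not settled by its ID. Capitals mark TTGCAAT, letters found in sites of C/EBP factors, which drive acute phase genes.
Kng1: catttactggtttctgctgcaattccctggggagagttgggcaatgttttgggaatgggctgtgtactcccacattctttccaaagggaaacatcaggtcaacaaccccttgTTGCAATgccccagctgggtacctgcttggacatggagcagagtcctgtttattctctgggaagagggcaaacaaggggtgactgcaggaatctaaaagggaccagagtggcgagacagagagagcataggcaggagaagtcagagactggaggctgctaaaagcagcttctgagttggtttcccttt
Kng2: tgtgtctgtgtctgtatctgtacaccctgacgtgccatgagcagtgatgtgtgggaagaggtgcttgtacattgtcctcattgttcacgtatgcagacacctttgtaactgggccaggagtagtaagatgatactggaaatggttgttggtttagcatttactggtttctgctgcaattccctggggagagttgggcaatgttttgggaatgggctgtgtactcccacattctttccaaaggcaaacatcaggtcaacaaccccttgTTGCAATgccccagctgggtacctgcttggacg
An alignment of the windows matched 144 bases, of which 143 were identical (99.3%), and Kng1 matched the windows at the 2 annotated starts of Kng2l1 with 92.1% and 92.4% identity. The C/EBP letters stand 138 bases before the annotated start of Kng1 and 17 bases past that of Kng2. Of 33469 promoter windows of this length, 2.17% hold these letters on either strand. The letters TTCNNNGAA of STAT factors and a motif of NF-kappaB were also searched on both strands and are in neither window, and 8.87% and 19.3% of all windows hold them. The same 3 motifs are not in the Pi16 window, and no match overlapped another in those of Kng1 and Kng2. The motifs were chosen with the sequences in view, and a match is a description only.

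Among genes that make, control or remove kinins, 2 of 27 others were listed for IMQ against WT, and both rose. In that comparison 58.9% of all listed genes were higher past the threshold. The C1 inhibitor Serping1, which also inhibits plasma kallikrein, was at 15.03 ± 0.25 in IMQ and 12.10 ± 0.39 in WT (limma adjusted p = 0.000287). Ace, which degrades bradykinin, was at 9.85 ± 0.24 in IMQ and 7.93 ± 0.34 in WT (adjusted p = 0.00165). Under lidocaine Dpp4, a peptidase that trims short peptides, was the 1 listed gene and differed by -1.16 (SE 0.28, adjusted p = 0.0104), a call lost without lidocaine replicate 1. The kinin receptors Bdkrb1 and Bdkrb2 are not among the listed genes, which says only that they did not enter the authors' selection.

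Other genes of the cystatin family mostly went the opposite way from Kng1. Of 23 others 9 were listed for IMQ against WT, 2 higher and 7 lower, of which 2 and 6 passed the threshold. The median difference was -1.93, or -1.28 when the 3 that were undetected in IMQ are placed at a bound of 3 reads per library. Fetuin B (Fetub), a liver-type inhibitor built like kininogen from cystatin domains, was at 5.56 ± 0.40 in IMQ and 0.82 ± 1.41 in WT (adjusted p = 0.00167). Cystatin F (Cst7), an inhibitor made by immune cells, was at 7.67 ± 0.18 in IMQ and 4.84 ± 1.21 in WT (adjusted p = 0.00566). The stefins Stfa3, Stfa2l1 and Csta had no read in any IMQ library and were at 5.31 ± 1.20, 2.49 ± 1.12 and 2.14 ± 1.14 in WT. Cst12 differed by -2.01 (SE 0.40, limma adjusted p = 0.00496). Stefins are near-identical copies, so single members are uncertain.

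The listed cysteine proteases, the class that cystatins inhibit, rose in IMQ. Among all listed genes 58.9% were higher past the threshold in IMQ, and 87.1% lower under lidocaine. Of 18 cathepsin and calpain genes 3 were listed for IMQ against WT, all higher: cathepsin S (Ctss, 11.90 ± 0.20 in IMQ and 9.20 ± 0.28 in WT, adjusted p = 0.000272), cathepsin W (Ctsw, 6.37 ± 0.08 and 2.30 ± 0.58, adjusted p = 0.000343) and cathepsin C (Ctsc, 11.91 ± 0.03 and 9.48 ± 0.37, adjusted p = 0.000417). Under lidocaine Ctss and Ctsw fell, with differences of -1.19 and -1.87 (SE 0.24 and 0.31; limma adjusted p = 0.00673 and 0.00453), and the cystatin Cst7 fell, with a difference of -1.27 (SE 0.26, adjusted p = 0.0068).

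Transcripts typical of liver were present beside Kng1. Of 18 liver markers 7 were listed for IMQ against WT, 5 past the threshold and higher and 1 past it and lower, with summed normalized counts of 9375 to 10671 in IMQ and 3131 to 5277 in WT. Without WT replicate 2 the counts were 3 and 0, with the calls of Alb, Crp and Apoh lost, and the 1 lower gene, Apoh, was also lost without IMQ replicate 1 or 3 or WT replicate 3. The call of Alb was lost as well without IMQ replicate 1 or 2 or WT replicate 3. The median difference of the 7 was 1.27, against 1.25 for all listed genes. Since 58.9% of all listed genes were higher past the threshold and 37% lower, the liver counts by themselves single out no liver-type change. Most of the sum was transferrin (Tf, 13.18 ± 0.08 in IMQ and 11.97 ± 0.40 in WT), which glia also make, and without it the sum was 577 to 817 in IMQ and 212 to 367 in WT. Haptoglobin (Hp) was at 8.79 ± 0.28 in IMQ and 5.96 ± 0.54 in WT (adjusted p = 0.000949). Albumin (Alb), the defining liver transcript, was low in both groups, at 4.97 ± 0.61 in IMQ and 3.92 ± 0.20 in WT. None of the 7 was at 0 in a whole group, and the part of such transcripts in the Kng1 level was not tested.

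Pi16 (ENSRNOG00000000525) was lower with imiquimod than in untreated ganglia and lower again with lidocaine added. Normalized counts were 149 and 234 in the lidocaine libraries and 679, 576 and 568 in the IMQ libraries. In WT they were 2393, 4448 and 6763, from 3309, 6016 and 7578 reads. From lowest to highest the groups were lidocaine, IMQ and WT, without overlap, while the IMQ libraries were closely alike and the WT libraries spread widely.

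The log2 level of Pi16 was 9.24 ± 0.14 in IMQ and 12.02 ± 0.75 in WT (SD, n = 3 each), a difference of -2.78 (SE 0.39) and the 139th largest of 1608 decreases. The ratio of mean normalized counts was 0.134. Under lidocaine the level was 7.55 ± 0.46 (n = 2), against 9.24 ± 0.14 in IMQ, a difference of -1.69 (SE 0.27) and the 272nd largest of 702 decreases. The ratio of means there was 0.315. For IMQ against WT 35.8% of all listed genes were lower in IMQ with no overlap between groups, so that the separation of Pi16 is shared with many genes.

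The order of the WT libraries in Pi16, with replicate 3 highest and replicate 1 lowest, was a common one. Among genes listed as lower in IMQ 71.7% had the same order, and 88.9% had replicate 3 above replicate 1, by a median of 1.06 on the log2 scale. Among genes listed as higher in IMQ 29.5% had replicate 3 above replicate 1. The Pi16 difference was -3.18 without WT replicate 1 and -2.43 without WT replicate 3, and under lidocaine -1.37 without lidocaine replicate 1 and -2.02 without lidocaine replicate 2. Whether what set the WT libraries apart also lowered or raised Pi16 was not tested.

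The CAP relatives of Pi16 behaved differently in IMQ. Of 12 others 2 were listed for IMQ against WT, and both rose: Crisp3, a secreted protein of granules and glands, was at 6.37 ± 0.77 in IMQ and 1.45 ± 1.35 in WT (limma adjusted p = 0.00168), and Glipr1 was at 9.48 ± 0.09 and 7.37 ± 0.45 (adjusted p = 0.00144). Under lidocaine 3 were listed and all fell, with differences of -2.01 for Crisp3 (SE 0.53, adjusted p = 0.0134), -1.76 for R3hdml (SE 0.44, adjusted p = 0.0117) and -1.20 for Glipr1 (SE 0.22, adjusted p = 0.0054). Among all listed genes 58.9% were higher past the threshold in IMQ and 87.1% lower under lidocaine. The calls of Crisp3 and R3hdml were lost with either lidocaine library left out, a fit with 1 lidocaine sample.

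Other markers of adventitial fibroblasts did not fall together with Pi16 in IMQ. Of 27 others 10 were listed, of which 8 rose and 2 fell, with a median difference of 1.57. For all listed genes the median was 1.25, with 58.9% higher past the threshold and 37% lower, so more rises than falls are common here. The 2 that fell were Dpt, the matrix protein dermatopontin, at 9.35 ± 0.08 in IMQ and 11.47 ± 0.23 in WT (adjusted p = 0.000456), and Clec3b, tetranectin, at 10.33 ± 0.31 and 11.81 ± 0.69 (adjusted p = 0.0113). Those that rose included the scavenger receptor Scara5 (1.32, SE 0.20, adjusted p = 0.0018), the chemokine receptor Ackr3 (1.64, SE 0.25, adjusted p = 0.00175), Limch1 (1.95, SE 0.63, adjusted p = 0.0223) and Ly6al (2.86, SE 0.65, adjusted p = 0.00736). The call of Limch1 was lost without any one IMQ library or WT replicate 2. The summed normalized count of the 10 was 75883 to 156365 in IMQ and 35049 to 46975 in WT. Igfbp5, which binds insulin-like growth factors, made up 76.4% to 86.1% of it in IMQ and 61.5% to 74.6% in WT, and without Igfbp5 the sum was 17938 to 21710 in IMQ and 11910 to 13684 in WT.

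Under lidocaine 4 other fibroblast markers were listed, all lower. Of these 3 passed the threshold, with differences of -1.32 for Anxa3 (SE 0.28, limma adjusted p = 0.0073), -1.16 for Dpp4 (SE 0.28, adjusted p = 0.0104) and -1.07 for Igfbp6 (SE 0.28, adjusted p = 0.0136). Igfbp5 was at 15.30 ± 0.15 in lidocaine and 16.45 ± 0.61 in IMQ (adjusted p = 0.0874), a difference that passed without IMQ replicate 2. The calls of Anxa3, Dpp4 and Igfbp6 were lost without lidocaine replicate 1, and that of Igfbp6 also without IMQ replicate 3. Summed, the 4 were at 41386 to 48590 in lidocaine and 67209 to 146797 in IMQ, of which Igfbp5 was 89.1% to 90.3% in lidocaine and 86.2% to 91.7% in IMQ. The 3 that passed summed to 4011 to 5284 in lidocaine and 9155 to 12142 in IMQ. Meningeal markers also moved. In IMQ 8 of 8 listed entries rose (sums of 6632 to 14129 in IMQ and 2834 to 3911 in WT), Crabp2 being listed under more than 1 gene ID. Under lidocaine 8 of 8 fell (sums of 5583 to 7711 in lidocaine and 15707 to 28502 in IMQ), and fewer passed the threshold with either lidocaine library left out. Among all listed genes 58.9% were higher past the threshold in IMQ and 87.1% lower under lidocaine. The lidocaine counts therefore single out neither the fibroblast nor the meningeal list. None of the listed fibroblast or meningeal markers was at 0 in a whole group. How much of these coverings each sample held, and its part in the Pi16 level, was not tested.

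**Figure D4:**
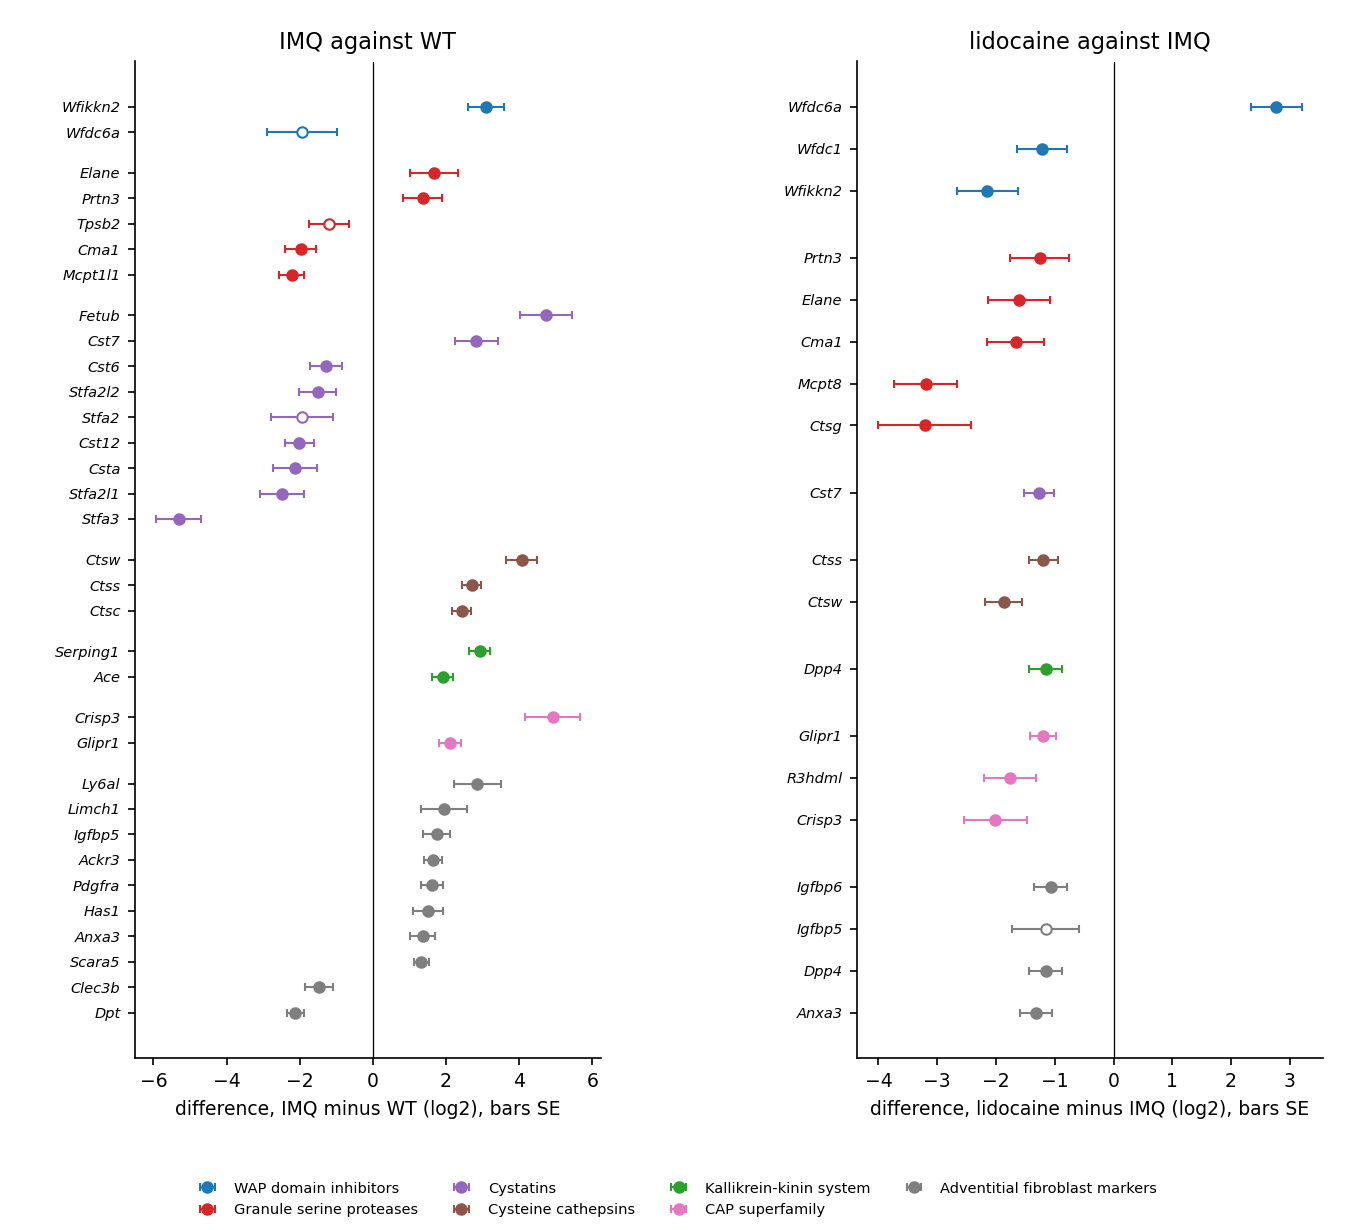
Differences between group means (horizontal axis, log2, bars SE) of the listed relatives, target proteases and fibroblast markers around Slpi, Kng1 and Pi16, which are themselves left out, for IMQ against WT (left) and lidocaine against IMQ (right). Filled points passed an adjusted p of 0.05 and open points did not; the cystatins split on the left, with Fetub and Cst7 higher and the other 7 lower.

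Across all families of protease inhibitors the tables showed no common direction in IMQ. Of 149 other inhibitor or CAP genes on the lists 32 were listed for IMQ against WT, 16 higher and 16 lower, with 14 and 13 past the threshold. Without WT replicate 2 the counts past it were 13 and 8. Of all genes listed for this comparison 58.9% were higher past the threshold and 37% lower. Among 11 listed serpins 7 were higher and 4 lower, of which 6 and 4 passed the threshold, or 5 and 2 without IMQ replicate 3. Serpinb3a had no read in any IMQ library and was at 3.41 ± 0.21 in WT. Of the inhibitors of metalloproteases, Timp1 rose by 2.03 (SE 0.34, adjusted p = 0.00251) and Timp3 by 1.56 (SE 0.39, adjusted p = 0.0107), and the carboxypeptidase inhibitor Lxn differed by -1.29 (SE 0.26, adjusted p = 0.00502). Of 3 listed Kunitz and Kazal or related inhibitors, Itih2 rose by 2.93 (SE 0.49, adjusted p = 0.00253), and Spink4 and Spink8 fell, with differences of -2.18 and -1.95 (SE 0.67 and 0.73, adjusted p = 0.019 and 0.0341). The call of Spink4 was lost without IMQ replicate 2 or WT replicate 2 or 3, and that of Spink8 without any one WT library. For lidocaine against IMQ 10 of the 149 were listed, 8 lower and 2 higher, all past the threshold. Fewer passed with either lidocaine library left out. Of all genes listed there 87.1% were lower past the threshold, so these counts single out no inhibitor family.

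The genes most like each of the 3 in their levels over libraries were taken by Pearson's r among genes with a symbol and a mean of at least 50 normalized counts. For Slpi, over 8 libraries and 357 genes found in both tables, they were Scimp (r = 0.972), an adaptor of antigen-presenting cells, the transglutaminase Tgm1 (r = 0.959), the metallothionein Mt2A (r = 0.957), the cystatin Cst7 (r = 0.956) and the chemokine Ccl5 (r = 0.953). All 5 were lowest in WT replicate 1, as Slpi was, which choosing them by r over these libraries favours. Of the 357 genes 50 had an r above 0.9 with Slpi, and the median r was 0.793.

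For Kng1, over the 6 IMQ and WT libraries and 2947 genes, they were fibronectin Fn1 (r = 0.999), the imiquimod receptor Tlr7 (r = 0.994), AC119015.2 (r = 0.994), the B cell survival factor Tnfsf13b (r = 0.993) and Sh3tc1 (r = 0.992). All 5 were highest in IMQ replicate 1 and lowest in WT replicate 2, like Kng1, which choosing them by r favours. Of the 2947 genes 790 were above 0.9 with Kng1, and the median r was 0.754.

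For Pi16, over 8 libraries, they were the haemoglobin chaperone Ahsp (r = 0.985), the keratin Krt19 (r = 0.971), AABR07065531.5 (r = 0.970), LOC103694857, described as haemoglobin subunit beta-2 (r = 0.963), and Cd79a of the B cell receptor (r = 0.960). Each had its lowest mean under lidocaine and its highest in WT, which choosing them by r favours. Of the 357 genes 11 were above 0.9 with Pi16. The libraries share their group steps and their normalization, and these r values are descriptions.

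**Figure D5:**
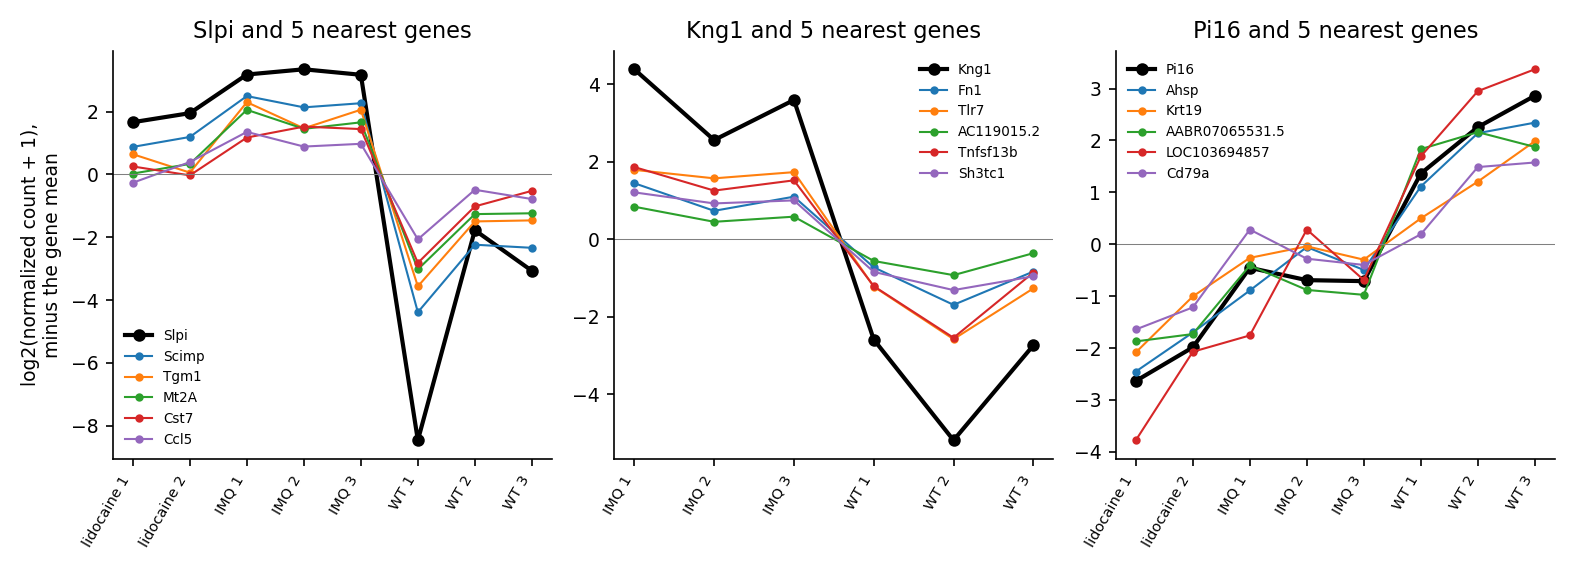
Level in each library (horizontal axis) as log2(normalized count + 1) minus the mean of the gene (vertical axis) for Slpi, Kng1 and Pi16 (black) and the 5 genes with the highest Pearson r to each; lines join the values of 1 gene and imply no order of libraries. Slpi drops most in WT replicate 1, Kng1 in WT replicate 2, and Pi16 is lowest in the lidocaine libraries.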

How the data were processed

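Per the submitters' processing notes, bcl2fastq, STAR 2.5.3a and DESeq2 were used, with no step named for each; not given in the sources used here are the genome build, annotation, counting tool and strand. The authors deposited 2 tables of log2 values for 8 libraries, which the values show to be log2(normalized count + 1). In every library 100% of the values checked, from 1 to 2000 reads, were whole multiples of 1 step (tolerance 0.02 reads). Its inverse, relative to the mean, was 0.789 to 0.873 in lidocaine, 0.808 to 0.912 in IMQ and 1.09 to 1.34 in WT. Shared IMQ values differed by at most 4.98e-09 between tables.

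Each table was fitted with limma 3.58.1 (R 4.3.3, mean-variance trend) over listed genes with a mean normalized count of at least 1, with Benjamini-Hochberg adjustment and a threshold of 0.05. The code was tested on simulated data. No 2 libraries of a group agreed within counting noise. The members and gene lists were chosen with earlier results of these data known. Named genes are the 3 members, the 5 genes most like each, every listed gene of lists with up to 6, and otherwise the 4 smallest adjusted p-values and 2 largest differences in each direction; the text prints part of these. Alternatives were pseudocounts of 0.1 and 10, no filter, a mean of at least 50, the replicate number as a block, limma-voom on recovered reads, and each library left out. A fit without 1 lidocaine library has 1 lidocaine sample, and its residual spread comes from the IMQ libraries alone. Sums of marker lists without their largest gene were added after seeing the data.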

Additional observations from a re-analysis of the deposited data

How the results depend on the processing

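With a pseudocount of 0.1 or 10 the IMQ against WT difference moved to 8.79 and 6.43 for Slpi and to 8.29 and 5.04 for Kng1. For Slpi the shift was less than the spread between WT libraries, which the 0 of WT replicate 1 widens. The size of its difference thus depends on the pseudocount too. The differences of Pi16 and the lidocaine against IMQ difference of Slpi moved by less than the spread between replicates. With each library left out in turn, the IMQ against WT difference was 5.65 to 9.0 for Slpi, 6.18 to 7.49 for Kng1 and -3.18 to -2.43 for Pi16, and the lidocaine against IMQ difference was -1.57 to -1.28 for Slpi and -2.02 to -1.37 for Pi16. No direction of the 3 genes changed under these alternatives. The listed genes past the threshold numbered 2435 higher and 1530 lower in IMQ against WT and 58 higher and 675 lower in lidocaine against IMQ. Leaving out 1 library gave 1565 to 2397 and 884 to 1559, and 24 to 50 and 359 to 644. Counts fell by over 1.5 times without IMQ replicate 3 (1565 and 885) or WT replicate 2 (1609 and 884) for IMQ against WT, and for lidocaine against IMQ without lidocaine replicate 1 (24 and 359), lidocaine replicate 2 (28 higher) or IMQ replicate 3 (30 higher). limma-voom on the recovered reads called 2474 higher and 1501 lower, and 63 higher and 663 lower. A mean of at least 50 normalized counts, which leaves fewer genes to test, gave 12 higher and 441 lower genes for lidocaine against IMQ. With the replicate number as a block, 2380 and 1438, and 39 and 572, passed. Deviations of same-numbered libraries correlated at -0.159 to -0.058 for IMQ against WT and at 0.0163 and 0.044 for lidocaine against IMQ. No library of IMQ against WT correlated best with its own number, while lidocaine replicate 2 did (0.044). Deviations cancel out within groups this small, so the check cannot decide whether same-numbered samples were paired. No list gene reversed under any alternative run. The WT level of Kng1 rests on at most 7 reads per library, although relative depth was higher in WT (1.09 to 1.34) than in IMQ (0.808 to 0.912).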
